A study of Mus musculus with 20 samples.

Results

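The neuronal activity immediate early genes Arc, Fos, Junb, Egr1, Egr2, Nr4a1, Dusp1, Homer1, Ier2 and Ier5 were followed in the forebrain and cerebellum of knock-in (KI) and wild-type (WT) mice. The members were chosen by gene name, as every probe set annotated to 1 of these 10 genes. This gave 15 of the 22690 probe sets on the array: 3 each for Homer1 and Ier5, 2 for Egr2 and 1 for each other gene. All 15 passed the filter on dim signals, which kept 15627 probe sets in all. For 3 of them, Egr2 1427682_a_at, Homer1 1425671_at and Ier5 1460009_at, only WT forebrain arrays (2, 4 and 2) were above the limit, so their comparisons with WT forebrain are a description. Probe sets of 1 gene share their target and are not independent of each other.

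Total RNA was hybridised to 20 single-channel oligonucleotide arrays in 8 groups: KI and WT forebrain and KI and WT cerebellum, with 3 arrays per genotype and region at 4 weeks of age and 2 at 11 weeks. The older mice are given as 11 weeks old by the descriptions, against 12 by the titles. The labels name neither the knocked-in allele nor the strain, do not describe how the animals were handled before dissection, and do not say that the arrays hold separate mice, so p-values measure the spread between these arrays. For 7 of the 10 forebrain arrays the source field names cerebellum. For KI forebrain 4 weeks replicate 3 the description does so too.

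Immediate early genes are switched on within minutes of synaptic activity, through calcium and kinases that act on transcription factors already bound at their promoters, and they need no new protein for this. Some encode transcription factors (Fos and Junb of the AP-1 complex, the zinc finger factors Egr1 and Egr2, the orphan nuclear receptor Nr4a1). Others act at the synapse (Arc, which promotes endocytosis of AMPA receptors, and the short form of Homer1, which uncouples scaffolds of metabotropic glutamate receptors) or switch signalling off (Dusp1, a phosphatase of MAP kinases). In brain they also respond to handling, stress, light and anaesthesia, so the value of each single array matters here.

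The values are intensities on a linear scale, and differences are given as log2(intensity + 16), which understates changes of dim signals. Adjusted p-values come from limma over all 15627 kept probe sets with Benjamini-Hochberg adjustment, two-sided, and a probe set is called below 0.05. The errors of differences are standard errors. Median intensity per array was 979 to 1180. The filter limit, the 40th percentile of each array, had a median of 681 over the arrays. Pcp2, the Purkinje cell protein that marks cerebellum, read 149 to 579 on the forebrain arrays, the disputed one included, and 38010 to 55244 on the cerebellar arrays.

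The stretches just upstream of the start sites were searched for known activity elements. They are printed for 4 of the genes called lower in KI forebrain and for Fos and Junb, which were not called. The 250 bases before the RefSeq start are given 5′ to 3′ on the gene's strand, from the GRCm38.p6 build: Homer1 chr13:93303507-93303756 (plus strand), Nr4a1 chr15:101266596-101266845 (plus), Dusp1 chr17:26508473-26508722 (minus), Egr2 chr10:67537619-67537868 (plus, 1 of its 5 listed windows), Fos chr12:85473640-85473889 (plus) and Junb chr8:84978749-84978998 (minus). Capitals mark the motifs searched on both strands: the cAMP response element (CRE) TGACGTCA and its half-site TGACG, which reads CGTCA where it lies on the other strand, the CArG box bound by serum response factor, the AP-1 site TGANTCA, the EGR site GCGNGGGCG and the TATA box TATAAA.
Homer1: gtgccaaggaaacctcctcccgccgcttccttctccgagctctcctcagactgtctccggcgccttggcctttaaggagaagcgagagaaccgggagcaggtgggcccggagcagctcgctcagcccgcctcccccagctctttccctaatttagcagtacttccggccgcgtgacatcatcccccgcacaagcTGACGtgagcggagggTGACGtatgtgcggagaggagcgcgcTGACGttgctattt
Nr4a1: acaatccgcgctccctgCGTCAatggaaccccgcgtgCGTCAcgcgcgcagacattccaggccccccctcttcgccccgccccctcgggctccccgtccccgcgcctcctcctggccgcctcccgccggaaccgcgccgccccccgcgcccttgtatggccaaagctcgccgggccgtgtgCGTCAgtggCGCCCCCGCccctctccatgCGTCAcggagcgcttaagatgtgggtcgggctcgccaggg
Dusp1: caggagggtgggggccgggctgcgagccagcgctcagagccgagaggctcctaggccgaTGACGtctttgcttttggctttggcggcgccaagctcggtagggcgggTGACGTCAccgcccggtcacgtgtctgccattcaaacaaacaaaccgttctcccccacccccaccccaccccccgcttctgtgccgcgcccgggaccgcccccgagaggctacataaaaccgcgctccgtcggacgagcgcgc
Egr2: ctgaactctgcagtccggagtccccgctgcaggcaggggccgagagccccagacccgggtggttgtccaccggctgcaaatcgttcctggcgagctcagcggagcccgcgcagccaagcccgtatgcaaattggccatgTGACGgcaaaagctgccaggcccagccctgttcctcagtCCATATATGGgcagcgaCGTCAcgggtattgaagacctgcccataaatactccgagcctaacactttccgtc
Fos: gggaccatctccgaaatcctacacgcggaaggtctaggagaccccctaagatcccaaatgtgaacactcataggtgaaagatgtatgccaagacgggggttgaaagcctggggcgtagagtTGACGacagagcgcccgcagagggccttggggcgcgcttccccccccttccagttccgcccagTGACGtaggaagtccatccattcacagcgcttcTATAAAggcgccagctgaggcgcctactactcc
Junb: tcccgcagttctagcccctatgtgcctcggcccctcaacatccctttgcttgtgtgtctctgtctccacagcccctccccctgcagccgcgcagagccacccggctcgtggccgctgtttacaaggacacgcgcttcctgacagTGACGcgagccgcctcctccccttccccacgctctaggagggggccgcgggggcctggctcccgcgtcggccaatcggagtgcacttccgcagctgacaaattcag

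Windows of 7 of the 10 genes were searched, and Arc, Egr1 and Ier2 are not shown. The CRE half-site occurred in at least 1 window of 6 of these 7 genes, all but Ier5. Among all RefSeq genes with windows of that length, 5347 of 27025 held it in at least 1. By window, the share was 17.8% of 32851. Nr4a1 held 4 half-sites, Homer1 3, Dusp1 3, Egr2 2, Fos 2 and Junb 1, and Ier5 none. The half-site was thus found in 4 of the 5 genes with a window that were called lower in KI forebrain, and in both uncalled ones. In Dusp1, 2 of the 3 half-sites overlap as the full CRE, which 1.55% of all windows hold. The Egr2 window holds a CArG box (1.47% of windows), the Nr4a1 window an EGR site (4.7%) and the Fos window a TATA box (12.4%). No window of these genes held the AP-1 motif as spelled (6.75% of all windows). A match is a run of letters and not a measured site.

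In forebrain, 6 of the 10 genes had at least 1 probe set called lower in KI than in WT mice over both ages, and none was called higher. The synaptic genes Homer1 (1.86-fold lower) and Arc (1.55-fold), the transcription factors Egr2 (2.01-fold) and Nr4a1 (1.50-fold), the phosphatase gene Dusp1 (1.50-fold) and Ier5 (1.35-fold) fell, while Fos, Junb, Egr1 and Ier2 did not pass the test. By probe set, 8 of 15 were called lower, against 5.13% of all probe sets tested, and 0 higher, against 8.36%. Without the 3 that entered through WT forebrain alone, 7 of 12 were called lower. Without the filter, which adds dim probe sets to the adjustment, Homer1 1421768_a_at, Nr4a1 and Dusp1 were still called, and the adjusted p-values of the other 5 were 0.0529 to 0.072. All 15 fitted differences were below 0, and with them all of the 12 that did not enter through WT forebrain alone. Over all probe sets 44% were below 0. The median of the 15, which counts the 3 that entered through WT forebrain alone, was -0.58 against 0.04 for all. On 8 of the 15, every KI array lay below every WT array, which held for 4.15% of all probe sets. For 6 of the 12 that did not enter through WT forebrain alone, the genotypes did not overlap. Since tissue was measured in bulk, fewer cells of a type and less RNA per cell cannot be told apart.

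**Figure D1:**
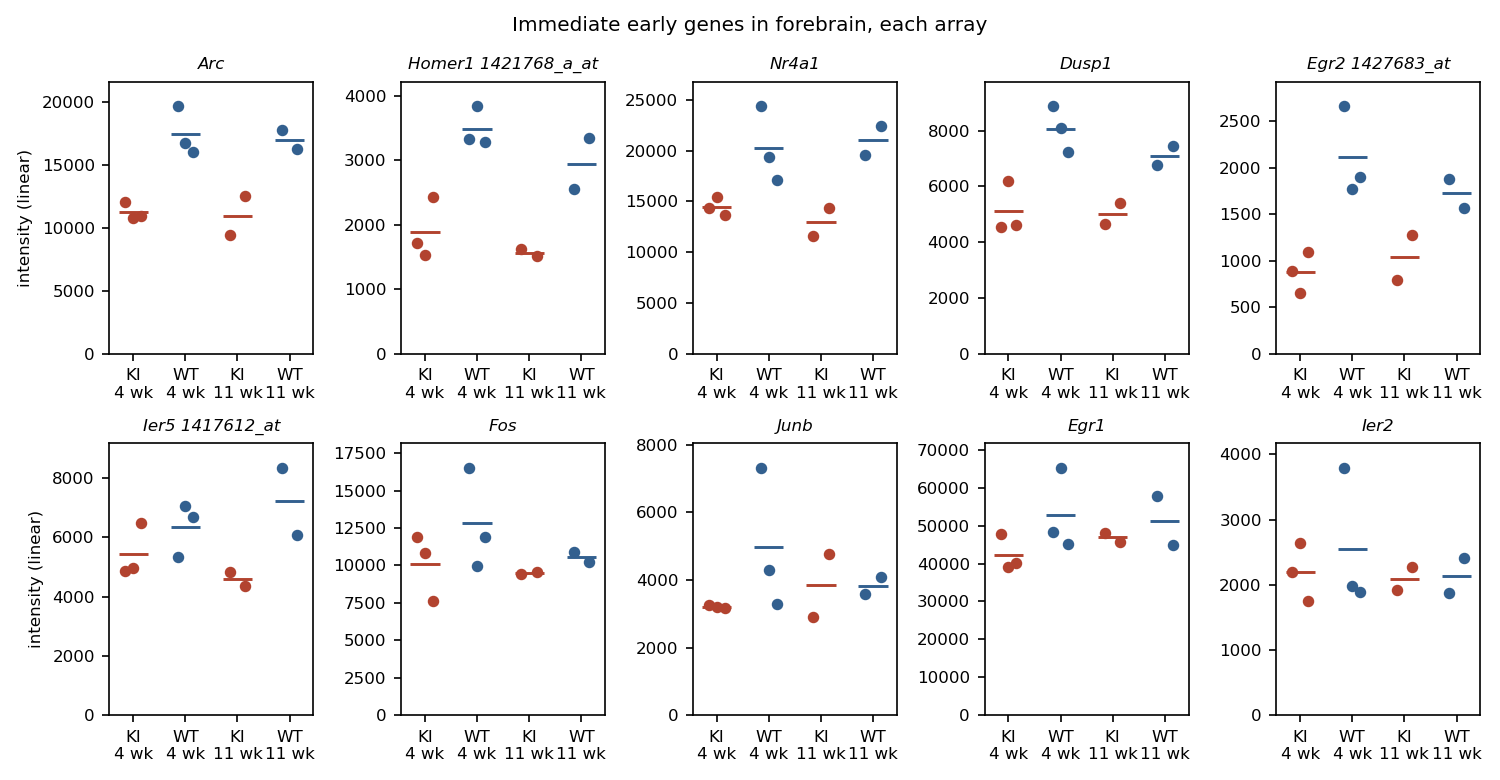
Intensity (linear scale, from 0) of 1 probe set per gene, the one with the lowest p in forebrain, on each forebrain array, with KI arrays in red and WT arrays in blue at 4 weeks (3 arrays each) and 11 weeks (2 arrays each). Points are arrays and bars are group means. For Arc, Homer1, Nr4a1, Dusp1 and Egr2 all KI points lie below all WT points, while for Ier5, Fos, Junb, Egr1 and Ier2 they overlap and WT 4 weeks replicate 1 is the highest point for Fos (16525), Junb (7326) and Ier2 (3796).

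Homer1 had the lowest p of the members. Its probe set 1421768_a_at read 1711, 1525 and 2427 in KI forebrain at 4 weeks and 1622 and 1508 at 11 weeks, against 3333, 3836 and 3276 in WT forebrain at 4 weeks and 2553 and 3340 at 11 weeks. The highest KI array, KI 4 weeks replicate 3, stayed below the lowest WT array. The difference was -0.90 ± 0.15 (1.86-fold lower, adjusted p = 0.00264). Probe set 1425710_a_at read 1844 to 2780 on the KI arrays and 3052 to 3681 on the WT arrays, also without overlap (-0.58 ± 0.16, adjusted p = 0.0308). The third, 1425671_at, is dim: it read 237 to 448 in KI and 558 to 1317 in WT forebrain, and it passed the filter limit on 0 of 5 KI and 4 of 5 WT arrays. Its level in KI is therefore a bound, taken as the higher of the limit and its own value, which gives at least 1.22-fold lower. The bound itself was not tested. The adjusted p of 0.029 belongs to the limma fit of the values as read. Leaving out 7 of the 10 forebrain arrays, 1 at a time, took the adjusted p of 1425710_a_at to between 0.0511 and 0.132, and that of 1425671_at to between 0.0541 and 0.0969. The calls held without KI 4 weeks replicate 3 or WT 4 weeks replicate 1 for both, without KI 11 weeks replicate 1 for 1425710_a_at and without KI 4 weeks replicate 1 for 1425671_at. All 3 Homer1 probe sets were lower in KI, but 1425671_at entered through WT forebrain alone. The probe annotation does not tell which of the 3 reads the short, activity-induced form.

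Arc read 12094, 10825 and 10981 in KI forebrain at 4 weeks and 9463 and 12508 at 11 weeks, against 19687, 16721 and 16041 in WT forebrain at 4 weeks and 17771 and 16263 at 11 weeks. The groups did not overlap at either age. Arc was lower by 0.63 on the log2 scale (a difference of -0.63 ± 0.18, 1.55-fold, adjusted p = 0.0327). Within forebrain groups its spread was small, with a residual SD of 0.16 log2 units, but in cerebellum it was 0.40, and the pooled fit uses both. Leaving out any 1 of 8 of the 10 forebrain arrays took the adjusted p to between 0.0504 and 0.111. The exceptions were KI 4 weeks replicate 1 and WT 4 weeks replicate 3.

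Among the transcription factors, Nr4a1 was the most even. It read 14335, 15408 and 13613 in KI forebrain at 4 weeks and 11587 and 14294 at 11 weeks, against 24375, 19348 and 17123 in WT at 4 weeks and 19597 and 22432 at 11 weeks. Every KI array was below every WT array (-0.59 ± 0.11, 1.50-fold lower, adjusted p = 0.00412). Its residual SD over all groups was 0.16, which 31.6% of probe sets undercut.

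Egr2, a factor known for myelination by Schwann cells and induced by activity in neurons, was measured by a brighter and a dimmer probe set. The brighter, 1427683_at, read 890, 654 and 1093 in KI forebrain at 4 weeks and 790 and 1281 at 11 weeks, against 2663, 1774 and 1904 in WT at 4 weeks and 1882 and 1566 at 11 weeks. Its groups did not overlap (-1.01 ± 0.29, 2.01-fold lower, adjusted p = 0.0336). Leaving out 7 of the 10 forebrain arrays, 1 at a time, took its adjusted p to between 0.0550 and 0.116, and the exceptions were KI 4 weeks replicate 3 and WT 4 weeks replicates 2 and 3. The dimmer, 1427682_a_at, read 51.6 to 327 in KI and 354 to 990 in WT forebrain. It passed the filter limit on 0 of 5 KI arrays and 2 of 5 WT arrays, and was not called (-1.40 ± 0.46, adjusted p = 0.0559), so no fold is given.

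Egr1, Fos and Junb were not called in forebrain. Egr1, a zinc finger factor induced with synaptic plasticity, read 38970 to 48150 on KI arrays and 44940 to 65306 on WT arrays (-0.21 ± 0.17, 95% interval -0.57 to 0.14, adjusted p = 0.412). Fos read 7586 to 11907 in KI and 9980 to 16525 in WT (-0.24 ± 0.16, 95% interval -0.58 to 0.09, adjusted p = 0.317). Junb read 2905 to 4779 in KI and 3304 to 7326 in WT (-0.29 ± 0.19, 95% interval -0.71 to 0.12, adjusted p = 0.324). The genotypes overlapped for each of these 3. All 3 intervals include 0, and their lower ends (-0.71 to -0.57) lie near or past the difference found for Nr4a1 (-0.59). Whether these genes differ from Nr4a1 was not tested. At 4 weeks alone the 3 KI arrays of Junb (3161 to 3250) lay just below the 3 WT arrays (3304 to 7326), without passing the test (-0.55 ± 0.25, adjusted p = 0.17).

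Dusp1, which dephosphorylates the MAP kinases that induce the other members, read 4530, 6180 and 4617 in KI forebrain at 4 weeks and 4647 and 5391 at 11 weeks, against 8872, 8101 and 7222 in WT at 4 weeks and 6767 and 7436 at 11 weeks. No KI array reached a WT array (-0.58 ± 0.13, 1.50-fold lower, adjusted p = 0.0113). Dusp1, Nr4a1 and the Homer1 probe set 1421768_a_at were called under every alternative run for this comparison (20, 20 and 19 alternatives), with highest adjusted p-values of 0.0411, 0.0253 and 0.0161.

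Ier5 and Ier2 belong to 1 family of immediate early response proteins. The brightest Ier5 probe set, 1417612_at, read 4856, 4954 and 6500 in KI forebrain at 4 weeks and 4834 and 4347 at 11 weeks, against 5345, 7060 and 6709 in WT at 4 weeks and 8358 and 6099 at 11 weeks. The genotypes overlapped, since KI 4 weeks replicate 3 lay above WT 4 weeks replicate 1 and WT 11 weeks replicate 2. The call was close to the threshold (-0.43 ± 0.13, 1.35-fold lower, adjusted p = 0.044) and was lost in 10 of 20 alternatives. Among these were 7 of the 10 forebrain arrays left out 1 at a time (adjusted p = 0.0701 to 0.199), all but KI 4 weeks replicate 3, WT 4 weeks replicate 1 and WT 11 weeks replicate 2. Its other probe sets were not called. 1417613_at gave -0.32 ± 0.26 (adjusted p = 0.426), and the dim 1460009_at gave -0.01 ± 0.11 (adjusted p = 0.979), so the Ier5 probe sets differ among themselves. Ier2 read 1746 to 2633 in KI and 1869 to 3796 in WT forebrain, a difference of -0.09 ± 0.18 (95% interval -0.47 to 0.29, adjusted p = 0.761).

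By age, members were called at 4 weeks, with 3 arrays per group, and not at 11 weeks, with 2. At 4 weeks 4 of 15 probe sets were called lower, against 2.42% of all: Homer1 1421768_a_at (-0.90, adjusted p = 0.0134), Dusp1 (-0.67, adjusted p = 0.0263), Nr4a1 (-0.47, adjusted p = 0.0448) and Egr2 1427683_at (-1.26, adjusted p = 0.05 as rounded, and below the threshold). Without WT forebrain 4 weeks replicate 1, the array that was highest for Fos, Junb and Ier2, 1 of these calls was kept, and without each of the other 5 arrays 0 to 3 were. At 11 weeks limma called 0 of 15, against 0.864% of all. Here 7 members had an unadjusted p under 0.05, beside 2440 of all 15627 probe sets. The 11-week differences were -0.89 for Homer1 1421768_a_at (adjusted p = 0.086), -0.70 for Nr4a1 (adjusted p = 0.0609), -0.64 for Arc (adjusted p = 0.283) and -0.50 for Dusp1 (adjusted p = 0.239). The test of the change in KI effect between ages in forebrain called 0 of 15 members and 0% of all probe sets. An unadjusted p under 0.05 was found for 1 member and for 971 of all 15627 probe sets.

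In cerebellum none of the members was called between KI and WT mice. Limma called 0 of 15 at 4 weeks (0.0512% of all), 0 of 15 at 11 weeks (0.346%) and 0 of 15 over both ages (3.35%). An unadjusted p under 0.05 was found for 1, 3 and 3 members, beside 2072, 2306 and 3364 of all 15627 probe sets. Over both ages 9 of 15 differences were below 0 and their median was -0.13. Nr4a1 read 3991 to 8058 in KI and 5932 to 7762 in WT cerebellum (-0.17 ± 0.11, adjusted p = 0.379). Homer1 1421768_a_at read 557 to 971 in KI and 783 to 1046 in WT (-0.21 ± 0.15, adjusted p = 0.452), and Dusp1 read 8193 to 14268 in KI and 8226 to 15599 in WT (-0.23 ± 0.13, adjusted p = 0.313). These 3 genotype pairs overlapped. At 11 weeks alone Nr4a1 read 4807 and 3991 in KI and 5932 and 5969 in WT cerebellum, without overlap or a call (-0.44 ± 0.17, adjusted p = 0.231).

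Arc and Junb had positive fitted differences in cerebellum. Arc read 717 to 1400 in KI and 534 to 1072 in WT (0.27 ± 0.18, adjusted p = 0.4). Junb read 1014 and 1266 in KI cerebellum at 11 weeks, against 627 and 551 in WT, with no overlap. At 4 weeks it overlapped, at 828 to 1161 in KI and 727 to 1055 in WT. Only 1 of the 2 WT arrays at 11 weeks read Junb above the filter limit. Over both ages its difference was 0.54 ± 0.19 (adjusted p = 0.123), and neither gene passed. The dim Ier5 probe set 1460009_at came closest (0.35 ± 0.11, adjusted p = 0.0838), but no cerebellar array read it above the limit. Of the alternatives run, it passed the test only without WT cerebellum 11 weeks replicate 2 (0.48, adjusted p = 0.0415).

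**Figure D2:**
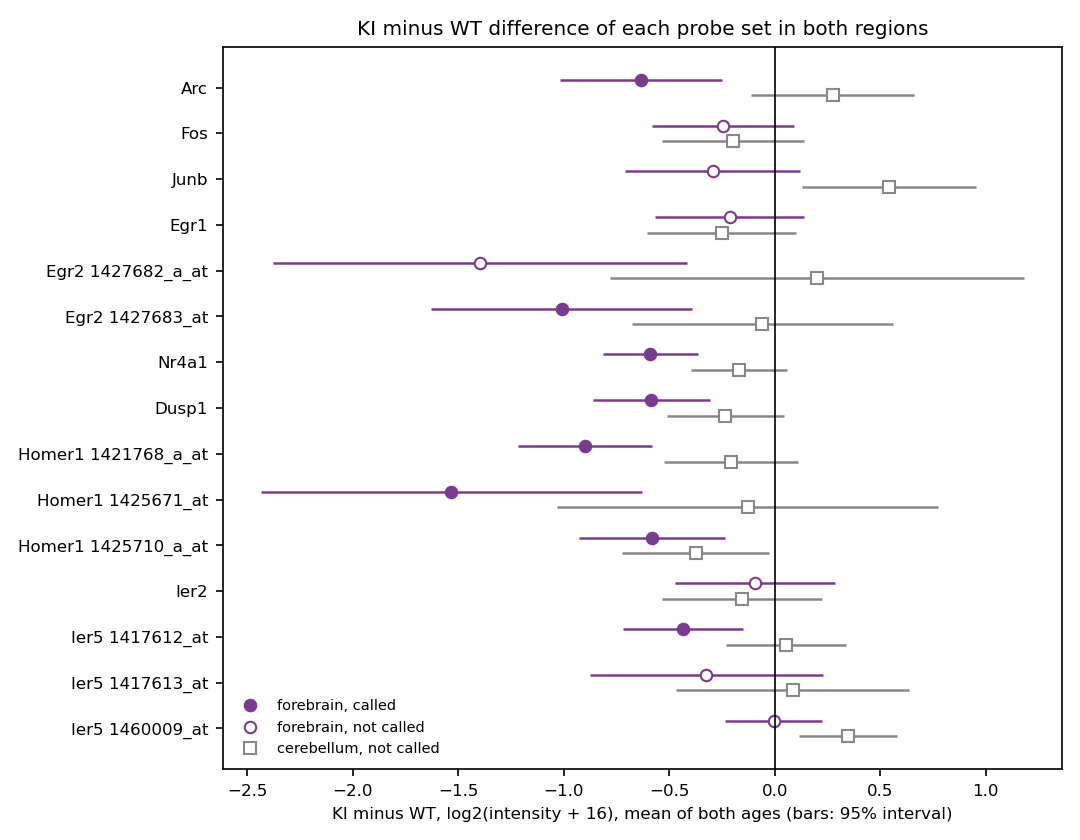
KI minus WT difference on the log2(intensity + 16) scale, mean of both ages, of each of the 15 probe sets in forebrain (circles) and cerebellum (squares), with 95% intervals. Filled symbols passed the test: 8 forebrain probe sets, and no cerebellar one. The point of Homer1 1425671_at (-1.53) lies farthest out but rests on KI signals below the filter limit, where only a bound can be given.

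A call in forebrain and none in cerebellum do not by themselves show that the regions differ. The test of the difference between the KI effects of the regions called 0 of 15 members, against 0.282% of all probe sets, while 9 members and 1428 of all 15627 probe sets had an unadjusted p under 0.05. Arc gave the lowest adjusted p of the members (forebrain minus cerebellum -0.91 ± 0.26, adjusted p = 0.208), then Homer1 1421768_a_at (-0.69 ± 0.21, adjusted p = 0.264) and Junb (-0.84 ± 0.27, adjusted p = 0.304). For Fos (-0.05 ± 0.22), Egr1 (0.04 ± 0.24) and Ier2 (0.06 ± 0.25) the fitted effects of both regions were alike in size, with standard errors larger than the difference. Averaged over all 4 region and age groups, 4 of 15 probe sets were called lower, against 8.65% of all: Homer1 1421768_a_at (-0.55 ± 0.11) and 1425710_a_at (-0.48 ± 0.12), Dusp1 (-0.41 ± 0.09) and Nr4a1 (-0.38 ± 0.08).

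Most members were higher in forebrain than in cerebellum in both genotypes. In WT mice 12 of 15 probe sets were called higher in forebrain, against 21.3% of all, and 1 lower, against 26.6%. In KI mice the counts were the same, 12 higher (21.2% of all) and 1 lower (24.5%). Of these 12, 3 were above the limit on WT forebrain arrays alone and thus on no KI array, which leaves 9 called higher among the 12 others, in KI and in WT mice. Arc read 16041 to 19687 in WT forebrain and 534 to 1072 in WT cerebellum, 22.0-fold higher in forebrain (adjusted p = 1.24e-11). In KI mice it read 9463 to 12508 in forebrain and 717 to 1400 in cerebellum, 11.7-fold higher (adjusted p = 2.23e-10). Egr1 was 7.24-fold higher in WT and 7.43-fold higher in KI forebrain, and Junb 5.83-fold in WT and 3.27-fold in KI forebrain.

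Nr4a1 (3.13-fold in WT, 2.34-fold in KI), Homer1 1421768_a_at (3.48-fold in WT, 2.15-fold in KI) and Ier5 1417612_at (3.34-fold in WT, 2.39-fold in KI) were also higher in forebrain. Egr2 1427683_at passed the filter limit on no cerebellar array, so its fold is a bound, at least 2.90-fold in WT and at least 1.31-fold in KI. The Ier5 probe set 1417613_at likewise gave at least 4.16-fold in WT and at least 3.01-fold in KI. Dusp1 ran the other way. It was 1.55-fold lower in WT forebrain (6767 to 8872) than in WT cerebellum (8226 to 15599, adjusted p = 0.000829) and 1.97-fold lower in KI forebrain (4530 to 6180) than in KI cerebellum (8193 to 14268, adjusted p = 1.41e-05).

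Fos did not differ by region beyond its spread. It read 9980 to 16525 in WT forebrain and 7707 to 14852 in WT cerebellum (0.09 ± 0.16, adjusted p = 0.689), and 7586 to 11907 in KI forebrain and 8638 to 11146 in KI cerebellum (0.04 ± 0.16, adjusted p = 0.858). Ier2 had fitted differences below 0 in both genotypes, -0.43 ± 0.18 in WT (adjusted p = 0.0584) and -0.37 ± 0.18 in KI (adjusted p = 0.104). Of the alternatives run, the WT difference of Ier2 was called without WT forebrain 4 weeks replicate 1 (-0.59, adjusted p = 0.00187) and with the intensity trend (adjusted p = 0.0395), among others. The KI difference was called with the compared groups only (adjusted p = 0.0299), among others.

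**Figure D3:**
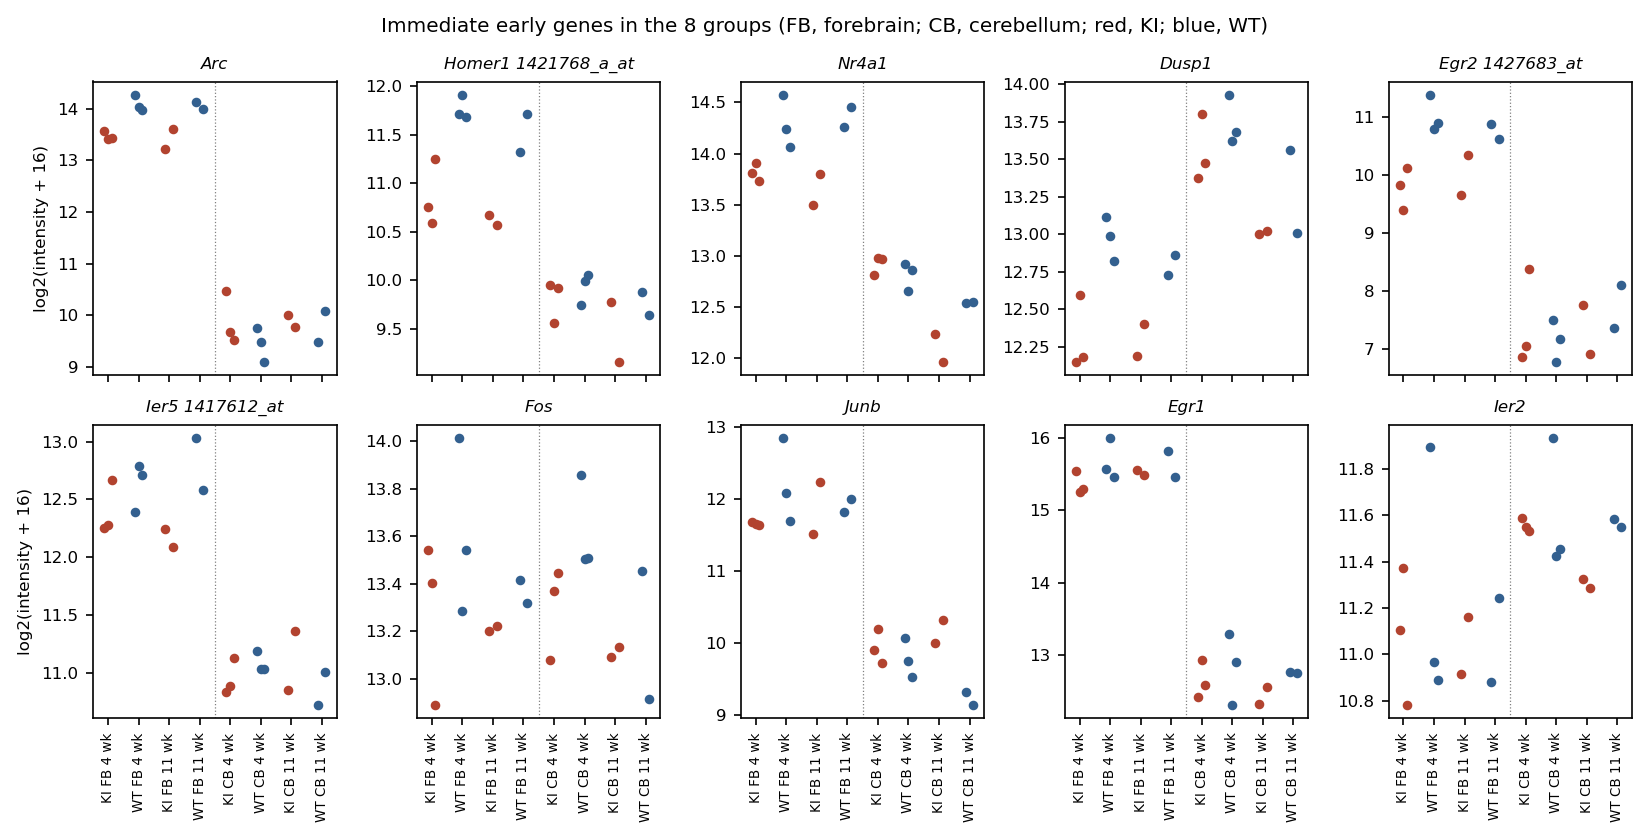
Level of the same probe set per gene as in the forebrain plot on each array, as log2(intensity + 16), in the 8 groups (FB, forebrain, left of the dotted line; CB, cerebellum, right of it; red, KI; blue, WT). Arc, Egr1, Egr2, Junb, Nr4a1, Homer1 and Ier5 lie higher in forebrain, Dusp1 lies lower there, Fos spans much the same range in both regions, and Ier2 overlaps between regions through a few high forebrain arrays (up to 3796, against 2483 to 3899 in cerebellum).

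Ordered by level, Arc, the 3 Homer1 probe sets, Nr4a1 and both Egr2 probe sets shared 1 order of blocks. Both WT forebrain groups came first and overlapped each other, both KI forebrain groups came next, and the 4 cerebellar groups came last with ranges that mostly overlapped. The step from WT to KI forebrain was free of overlap for each of these 7 probe sets, which are grouped here for this order and of which 2 entered through WT forebrain alone. That from KI forebrain to cerebellum was so for all but the dim Egr2 1427682_a_at, whose lowest KI forebrain array (51.6) lay under 1 WT cerebellar array (54.2). For Fos no neighbours in the order separated, from WT cerebellum at 4 weeks (13.63 on the log2 scale) down to KI cerebellum at 11 weeks (13.11). For Junb and Egr1 the 4 forebrain groups overlapped from one to the next and lay above every cerebellar array. For Dusp1 the cerebellar groups came first and overlapped WT forebrain, and the KI forebrain groups came last, apart from WT forebrain.

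Age moved few members. From 4 to 11 weeks limma called 0 of 15 in WT cerebellum (0.198% of all probe sets), WT forebrain (0.0064%) and KI forebrain (0.064%). An unadjusted p under 0.05 was found for 2, 0 and 0 members, beside 1455, 961 and 1792 of all 15627 probe sets. In KI cerebellum 1 of 15 was called lower, against 0.461% of all. This was Nr4a1, which read 4807 and 3991 at 11 weeks against 7172, 8058 and 8022 at 4 weeks (-0.82 ± 0.15, 1.76-fold lower, adjusted p = 0.0225). In WT cerebellum it read 5932 and 5969 at 11 weeks and 7762, 6465 and 7440 at 4 weeks, also without overlap, but did not pass (-0.27 ± 0.15, adjusted p = 0.633). The call in KI was lost without KI cerebellum 11 weeks replicate 2 (adjusted p = 0.378) and without 4-week replicate 2 or 3 (adjusted p = 0.0619 and 0.092).

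Because these genes answer to what an animal met in its last hour, the deviation of each array from its group mean was followed over 1 probe set per gene. WT forebrain 4 weeks replicate 1 stood highest within its group for Ier2 (0.65 log2 units above the mean), Junb (0.64), Fos (0.40) and Nr4a1 (0.28), with 7 of 10 genes above. In cerebellum WT 4 weeks replicate 1 lay above its group mean for 9 of 10 genes, by 0.45 for Egr1, 0.33 for Ier2 and 0.28 for Junb, and below it for Homer1 (-0.54). KI forebrain 4 weeks replicates stayed within 0.02 of their mean for Junb. On the KI forebrain arrays the deviations of Ier2 ran from -0.30 to 0.28 and those of Fos from -0.39 to 0.26.

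**Figure D4:**
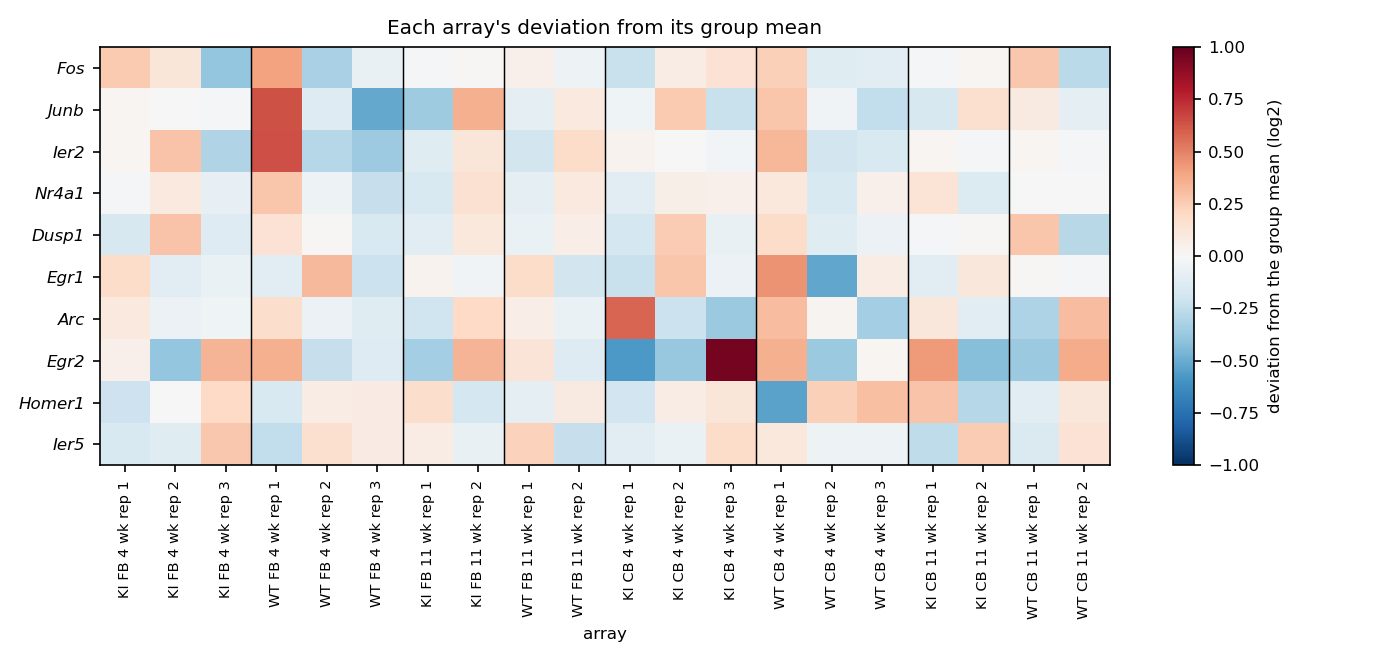
Deviation of each array from its group mean (log2 units, red above and blue below) for 1 probe set per member gene. Columns are the 20 arrays with groups parted by lines, and WT forebrain 4 weeks replicate 1 shows Ier2 (0.65) and Junb (0.64) as the highest deviations of any forebrain array.

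These deviations show which members vary together between arrays of 1 group. Over the 20 arrays, 27 of the 45 pairs of member genes had a Pearson r above 0, with a median of 0.11 and a range of -0.57 to 0.80. The closest pairs were Nr4a1 with Ier2 (0.80), Junb with Ier2 (0.77), Fos with Ier2 (0.68) and Junb with Nr4a1 (0.67). Homer1, here by its brightest probe set 1425710_a_at, ran against Junb (-0.57), Fos and Ier2 (-0.51 each), and Ier5 against Nr4a1 and Ier2 (-0.55 each). Arrays share their scaling, and groups of 2 force mirrored deviations, so these values describe the arrays only. In forebrain the within-group SD was 0.40 for Junb and 0.39 for Ier2, larger than in 90.7% and 89.8% of all probe sets, against 0.16 for Arc, 0.18 for Dusp1 and 0.19 for Nr4a1. The probe sets called lower in KI forebrain had within-group SDs of 0.16 to 0.24 there, except Egr2 1427683_at (0.35) and the dim Homer1 1425671_at (0.42).

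By the same measure, the 10 kept probe sets outside the list that were most like the mean deviation of the 10 genes were those of Slc19a1 (Pearson r 0.92 over 20 arrays), Atp9a (0.91), Myl6 (0.89), Flot2 (0.89), Cul7 (0.87), Angel1 (0.87), Cadm4 (0.86), Nrarp (0.86), Tcf19 (0.85) and Ptdss2 (0.84). They were picked as the highest of all kept probe sets and are listed as a description.

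Few of the other immediate early genes were called in KI forebrain, some lower and some higher. Of 31 measured genes in this list, 3 were called lower and 2 higher over both ages, beside 5.13% lower and 8.36% higher among all probe sets, and their median difference was -0.07 against 0.04 for all probe sets. Trib1, a pseudokinase, read 513 to 1002 in KI and 995 to 1783 in WT forebrain, lower in KI (-1.01 ± 0.23, adjusted p = 0.0125). Klf2, a Krüppel-like factor (-0.57 ± 0.15, adjusted p = 0.0216), and Gadd45b, which takes part in stress signalling and DNA demethylation (-0.54 ± 0.13, adjusted p = 0.0176), were lower too. Mafk, a small Maf factor (0.45 ± 0.11, adjusted p = 0.0155), and the clock gene Per1 (0.35 ± 0.11, adjusted p = 0.0401) were higher. Of the 8 measured relatives of member transcription factors in this list, 0 were called: the differences were 0.09 ± 0.22 for Fosb, 1.22 ± 0.50 for Fosl1 (adjusted p = 0.113), 0.02 ± 0.17 for Fosl2, 0.10 ± 0.12 for Jun, 0.23 ± 0.11 for Jund (adjusted p = 0.176), -0.40 ± 0.33 for Egr3 (adjusted p = 0.452), 0.01 ± 0.16 for Egr4 and -0.11 ± 0.14 for Nr4a2. Of these, Fosl1 alone had an unadjusted p under 0.05. It is dim, at 343 to 1080 in KI and 102 to 459 in WT forebrain, where every WT array read it below the filter limit. In cerebellum 1 of the 31 was called higher, beside 352 of all 15627 probe sets. This was Fosl1, which is dim there too (284 to 687 in KI, 59.5 to 444 in WT, adjusted p = 0.0474). No WT array of either region read Fosl1 above the limit. It thus entered through KI arrays alone, and its differences between KI and WT are a description.

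Of 13 measured genes known to follow the immediate early genes, 1 was called lower and 0 higher in KI forebrain. Among all probe sets 5.13% were called lower and 8.36% higher. The median of the 13 was -0.25. The called gene was Bdnf, the activity-regulated neurotrophin, at 2090 to 2431 in KI and 2514 to 3887 in WT forebrain with no overlap (-0.49 ± 0.15, adjusted p = 0.0398). In KI cerebellum 0 of the 13 were called, against 3.35% of all probe sets.

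Of 16 measured regulators that act upstream of the members, 4 were called lower and 1 higher in KI forebrain, beside 5.13% lower and 8.36% higher among all probe sets, with a median of -0.05. Camkk2, the kinase that activates CaM kinases I and IV, read 6223 to 9314 in KI and 10814 to 16049 in WT forebrain (-0.89 ± 0.10, adjusted p = 0.00021), and 9553 to 14600 in KI and 10500 to 16841 in WT cerebellum, where it was not called. Srf, the serum response factor, which binds CArG boxes, read 3722 to 5251 in KI and 5496 to 7147 in WT forebrain (-0.51 ± 0.14, adjusted p = 0.0274). Rps6ka3, the RSK2 kinase of the MAP kinase pathway (-0.46 ± 0.11, adjusted p = 0.0164), and Ppp3ca, the catalytic subunit of calcineurin (-0.26 ± 0.07, adjusted p = 0.0237), were lower. Elk1, a partner of Srf at such boxes, was higher (0.54 ± 0.14, adjusted p = 0.0247).

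The 3 lists that follow stand beside 5.13% lower and 8.36% higher among all probe sets in KI forebrain. Of 7 measured MAP kinase phosphatases other than Dusp1, 1 was called higher and 0 lower in KI forebrain: Dusp2, at 1274 to 1705 in KI and 947 to 1269 in WT (0.45 ± 0.11, adjusted p = 0.0196). Of 7 measured Homer relatives and partners, 0 were called in forebrain. Of 13 glucocorticoid-responsive genes, a list of interest because handling and stress raise corticosterone, 1 was called lower and 0 higher, with a median of 0.12. It was Nr3c1, the glucocorticoid receptor itself (-0.53 ± 0.13, adjusted p = 0.0152). In KI cerebellum 0 genes of these 3 lists were called, against 3.35% of all probe sets.

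Some markers of cell types were called in KI forebrain, in both directions. The counts of these lists stand beside 5.13% lower and 8.36% higher among all probe sets. The part of the markers in the values of the members was not tested. Of 6 measured cortical pyramidal neuron markers 1 was called higher (Neurod2) and 0 lower, with a median of -0.22. Their summed intensity was 67621 to 71414 in KI and 64131 to 92417 in WT forebrain at 4 weeks, and 56622 to 66923 in KI and 74205 to 75914 in WT at 11 weeks. Camk2a, the most abundant kinase of forebrain excitatory synapses, read 4828 to 8321 on KI and 9218 to 14567 on WT forebrain arrays with no overlap, but was not called in the fit that shares its spread with the dim cerebellar arrays (-0.75 ± 0.78, adjusted p = 0.549). Astrocyte markers summed to 79368 to 83238 in KI and 72784 to 80350 in WT at 4 weeks, and to 66445 to 67092 in KI and 82677 to 96663 in WT at 11 weeks, with 1 of 6 called lower.

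Microglia markers summed to 38578 to 43168 in KI and 33591 to 36867 in WT forebrain at 4 weeks, and to 31301 to 35067 in KI and 34466 to 37417 in WT at 11 weeks, with 1 of 7 called higher. Of 6 genes listed as Purkinje cell markers, 2 were called lower and 1 higher in KI forebrain, although Pcp2 itself was below the limit on every forebrain array. Their sum was 41365 to 47283 in KI and 52971 to 59819 in WT at 4 weeks, and 36737 to 38828 in KI and 47558 to 49144 in WT at 11 weeks. Of the other marker lists, 1 of 6 granule neuron, 1 of 4 striatal and 1 of 3 dentate genes were called higher, 1 of 6 endothelial genes was called lower, and 0 of 5 oligodendrocyte and 0 of 3 choroid plexus genes were called. The 3′ to 5′ ratio of the actin control, a sign of RNA integrity, was 1.09 to 1.22 in KI and 1.15 to 1.23 in WT forebrain at 4 weeks, and 0.934 to 1.06 in KI and 1.09 to 1.15 in WT at 11 weeks. That of Gapdh was 0.827 to 0.890 in KI and 0.744 to 0.828 in WT at 4 weeks, and 0.804 to 0.817 in KI and 0.805 to 0.821 in WT at 11 weeks. When the array with the disputed region label was left out, 8 of 15 probe sets were called lower in KI forebrain over both ages, with Arc lost (adjusted p = 0.0505) and Egr2 1427682_a_at gained (adjusted p = 0.0398).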

How the data were processed

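The deposited file gives a linear intensity for each probe set on each array. Each array had been scaled by the authors to a common level before it was deposited, since the 2% trimmed mean of the intensity was 2500.59 to 2500.75 on every array. The summary of probes is not given in the sources used here, and no depth exists for arrays, whose number limits the precision. Groups came from the sample descriptions and title codes. Probe sets were named through the platform annotation, with symbols from RefSeq (GRCm38.p6).

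Probe sets entered the tests if at least 2 arrays read them above their 40th percentile (15627 of 22690, 64 controls aside). Group means of log2(intensity + 16) over all 20 arrays were fitted jointly with limma 3.58.1 (lmFit, eBayes) in R 4.3.3, giving 12 residual and 3.45 prior degrees of freedom, and was tested on simulated data. Of the 16 comparisons, means over ages weight both ages equally. Every probe set of the 10 genes is named, and up to 6 called genes of a further list. Further lists use the brightest kept probe set per gene, with p-values adjusted over all probe sets. The 10 genes, the lists and the tests were chosen with earlier results of these data known. The alternatives were offsets of 1 and 64, no filter or a filter on 10 arrays, quantile and cyclic loess normalization, 1 probe set per gene, an intensity trend, the compared groups only, a replicate block and leaving out each array. Promoter windows and their start sites are from RefSeq.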

Additional observations from a re-analysis of the deposited data

How the results depend on the processing

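Over 43 called pairs of probe set and comparison and 849 alternative values, 0 changed direction, 769 kept their call and 80 lost it. The 8 members called in forebrain over both ages became 3 without the filter, which tests more dim probe sets, and 3 to 8 when 1 array was left out. The 4 called in forebrain at 4 weeks became 2 without the filter, 1 with only the compared groups in the fit and 0 to 3 when 1 array was left out. At 11 weeks in forebrain 1 member, Nr4a1, was called with the filter on 10 arrays and with the intensity trend. Averaged over all 4 groups, cyclic loess called 7 in place of 4, and leaving out 1 array 4 to 5. In cerebellum over both ages leaving out 1 array gave 0 to 1. For the regions, 1 probe set per gene leaves 8 called in KI and 8 in WT mice, since it holds fewer probe sets. For 11 against 4 weeks in KI cerebellum the count was 0 with only the compared groups and 0 to 1 when 1 array was left out. The cause of these changes, where not stated, was not tested.

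The labels do not say whether replicate numbers pair the arrays. Deviations of same-numbered arrays correlated at -0.02 to 0.11 between cerebellum and forebrain and at -0.10 to 0.05 between KI and WT. Arrays of different numbers were not compared in this way, so these values cannot settle the pairing. With the replicate block, 1 member was called in forebrain at 4 weeks in place of 4, and 6 in forebrain over both ages in place of 8, where Egr2 1427683_at (adjusted p = 0.0625) and Homer1 1425671_at (0.0572) lost their call. The lower Ier2 in forebrain passed with the block in KI (adjusted p = 0.0312) and in WT mice (0.0152). Groups of 2 arrays at 11 weeks and signals below the filter limit, as for Egr2 1427682_a_at, Homer1 1425671_at and Ier5 1460009_at, limit what these arrays can show.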
